A study of Mus musculus with 22 samples.

Results

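The nuclear factor I (NFI) family of mouse holds 4 genes, Nfia, Nfib, Nfic and Nfix, and they were chosen here by name from the gene column of the deposited tables. All 4 of 4 were found in both tables, among 24411 genes. The RNA came from primary neural stem cells of the adult mouse hippocampus, grown on coated plates in medium with EGF and bFGF, the growth factors that keep such cells dividing. Of the 22 libraries, 5 were ShOgt, from cells given lentiviral hairpins against Ogt at 10 viral particles per cell for 3 days. The 6 ShLuc libraries, named for a luciferase hairpin, were the controls for that knockdown, also at 10 viral particles per cell for 3 days. A further 5 were OSMI libraries, from cells kept for 24 h in 12.5 µM OSMI-1, an inhibitor of the OGT enzyme. Their controls were 6 Vehicle libraries given an equal volume of DMSO, also for 24 h. Strain, sex and age of the mice are not given in the sources used here. Nothing in the labels says whether libraries of a group came from separate cultures or animals, so the p-values measure the spread between these libraries, which may be technical.

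NFI proteins bind DNA as homodimers or heterodimers through a conserved N-terminal domain, and recognise a palindrome made of TTGGC and GCCAA separated by 5 bases. In the embryonic brain Nfia and Nfib help start the formation of glia and end the self-renewal of progenitors, and Nfix takes part in the timing of neuron production and in the quiescence of adult hippocampal stem cells. Nfic is best known from tooth root formation in mice and has been studied less in the brain. OGT attaches single N-acetylglucosamine sugars to nuclear and cytoplasmic proteins, and the study lowered it in these cells by knockdown and by inhibition.

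No 2 of the 4 genes are neighbours in the mouse genome (GRCm38). Nfia spans chr4:97772734-98118874 on the plus strand and Nfib chr4:82290173-82705750 on the minus strand. Nfic spans chr10:81396186-81455635 and Nfix chr8:84699876-84800344, both on the minus strand. The longest protein-coding transcripts in GENCODE M21 have 9526, 9116, 6237 and 5476 bases for Nfia, Nfib, Nfic and Nfix, most of it 3′ untranslated. No window of 50 bases was shared between any 2 of these transcripts, so long stretches that would let a read fit 2 members are not present in them. E130114P18Rik overlaps Nfia on the other strand, and it had 212 ± 20.7 normalized counts in ShOgt and 227 ± 24.2 in ShLuc libraries, and 156 ± 44.8 in OSMI and 150.3 ± 23.4 in Vehicle libraries (SD, n = 5 and 6). The annotation also puts Gm11266, Gm11268, Gm11269 and n-R5s188 opposite Nfib, Gm16104 opposite Nfic, and G430095P16Rik and Lyl1 opposite Nfix. On the same strand Gm11267 overlaps Nfib and Mir1191b overlaps Nfic. Of these Lyl1 had at most 1.9 normalized counts in any library and Mir1191b had 0, and the others are not analysed here. The 2 sources for the library preparation differ on whether strand was kept, so for all 4 members reads from the opposite strand cannot be told apart here.

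One 7-base sequence, AACATGC, is shown because genes that carry it in a 3′ untranslated region were called lower after the Ogt hairpin more often than other genes. That pattern was known from earlier results of these data, and whether the sequence matches the Ogt hairpin was not checked, since the hairpin's sequence is not given in the sources used here. Among the 4 members, it occurs once, in the 3′ untranslated region of Nfib transcript Nfib-203, 1339 bases after the stop codon, at GRCm38 chr4:82295449-82295455 on the minus strand. The site stands in capitals within its flanks, read 5′ to 3′.
Nfib 3′ site: gggtgctgggAACATGCatggtgcttt
Of 1155 tested genes with the sequence, 327 were lower in ShOgt than in ShLuc libraries (28.3%, median log2 fold change -0.17). Of 10193 genes without it, 15.6% were lower (median 0.02). The genes with and without it were not matched for length of the 3′ untranslated region. After OSMI the shares were 11% with it and 13.6% without it. Nfib, the only member that carries it, had a log2 fold change of 0.1 after the hairpin. The part of this sequence in the changes of the members was not tested. A match to these letters is a description only.

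Promoter windows of RefSeq (GRCm38.p6, 250 bases before to 50 after each start) covered Nfia with 1 window, Nfic with 1 and Nfix with 4. None of these 6 holds the full NFI palindrome or the single arm TTGGCA on either strand. Over 32851 windows of all genes, 0.0365% hold the palindrome and 14.1% the single arm, which can overlap it. Nfib is named only.

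In both tables the values are read counts per gene that the authors divided by 1 size factor per library, called normalized counts below, and each table was scaled on its own. Libraries held 7.22 to 13.2 M reads in the knockdown table and 4.52 to 12.8 M in the inhibitor table, and a member had 175 to 3801 reads and 136 to 2679 reads in a library of these tables. Ogt, the hairpin's target, had 401, 418, 349, 430 and 524 normalized counts in ShOgt libraries, against a lowest of 737, a median of 826 and a highest of 1004 in ShLuc libraries. After OSMI, which acts on the enzyme, Ogt averaged 599.9 ± 42.5, against 455 ± 37.6 in Vehicle libraries. Of 10 stem cell markers 9 passed the filter on low counts in the knockdown table and 8 in the inhibitor table, led by Fabp7. Rn45s, the ribosomal RNA precursor, took 0.921% to 1.25% of reads in the knockdown table and 4.81% to 14.2% in the inhibitor table. The 7 microglial markers summed to at most 20.6 normalized counts in any library. On principal components ShLuc 1, ShLuc 3, ShOgt 3, Vehicle 1 and OSMI 5 lay away from their groups and OSMI 4 was sequenced most deeply in its table. Results are therefore also given without these 6 where that ends a call, though some named calls were not rechecked in this way.

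Levels within a library were compared per kb of the longest transcript. In ShOgt libraries Nfib was highest at 347 ± 22.9 normalized counts per kb, then Nfix at 206 ± 22.9, Nfia at 100.1 ± 12.1 and Nfic at 34.9 ± 6.7 (SD, n = 5). ShLuc libraries had the same order, with Nfib at 324 ± 34.3, Nfix at 194 ± 13, Nfia at 123 ± 15.8 and Nfic at 64.2 ± 5.75 (SD, n = 6). In both groups the ranges of neighbouring members did not overlap. In OSMI libraries Nfib had 152 ± 19.1 normalized counts per kb, Nfia 80.7 ± 15.7, Nfix 63.1 ± 2.64 and Nfic 31.7 ± 4.36. In Vehicle libraries Nfib had 189.6 ± 27.6, Nfia 78.7 ± 6.4, Nfix 75.8 ± 6.91 and Nfic 43.3 ± 5.7. Nfia and Nfix overlapped in both groups of the inhibitor table, and Nfib first and Nfic last stood clear of them. The places of Nfia and Nfix depend on the length used: per kb of coding sequence Nfia was the higher in ShLuc libraries too (768 ± 98.4 against 716 ± 48 for Nfix).

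Knockdown of Ogt was accompanied by lower Nfic and, by less, lower Nfia, while Nfib and Nfix were not called. Nfic had 173, 173, 251, 254 and 239 normalized counts in ShOgt libraries 1, 2, 3, 5 and 6. In ShLuc libraries its lowest value was 345, its median 396 and its highest 447. Every ShOgt library lay below every ShLuc library, and Nfic stood at 53.9% of its ShLuc level (log2 fold change -0.89 ± 0.13 SE, limma adjusted p = 3.6e-05).

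Nfia had 844, 894, 909, 979 and 1140.3 normalized counts in ShOgt libraries. ShLuc libraries ran from 899.9 (ShLuc 1) over a median of 1231 to 1318. The groups overlapped, through ShLuc 1 at the low end and ShOgt 6 at the high end, and Nfia fell by 18.7% (log2 fold change -0.30 ± 0.10, limma adjusted p = 0.03). This call was lost on leaving out any of 7 of the 11 libraries, with an adjusted p of 0.091 without ShOgt 1, 0.073 without ShOgt 2, 0.051 without ShOgt 3, 0.053 without ShLuc 2, 0.057 without ShLuc 3, 0.071 without ShLuc 4 and 0.061 without ShLuc 6. The log2 fold change stayed between -0.37 and -0.26.

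Nfib, the member with the highest level, had 3023, 3306, 2922, 3127 and 3436 normalized counts in ShOgt libraries. Its ShLuc values ran from 2668 over a median of 2829 to 3545. The groups overlapped and the log2 fold change was 0.10 ± 0.07 (95% interval -0.05 to 0.26, limma adjusted p = 0.32). Nfix had 1103, 1145, 1334, 1054 and 1009 normalized counts in ShOgt libraries, against a lowest of 978, a median of 1083 and a highest of 1151 in ShLuc libraries. Its groups overlapped as well, with a log2 fold change of 0.08 ± 0.08 (95% interval -0.09 to 0.26, limma adjusted p = 0.49). A drop of the size seen in Nfic lies outside both intervals.

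Thus 2 of 4 members were called lower after Ogt knockdown, beside 16.4% of the 12136 genes tested. No member was called higher by limma or edgeR or had a positive change at an unadjusted p below 0.05, beside 15.4% of genes called higher. Groups without overlap, ShOgt lower, were found for 1 of 4 members (Nfic), beside 9.96% of genes. Groups without overlap, ShOgt higher, were found for 0 of 4, beside 8.83% of genes. The median log2 fold change of all genes was 0.01. The authors' deposited table gives adjusted p-values of 1.9e-09 for Nfic and 0.018 for Nfia in the same direction.

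**Figure D1:**
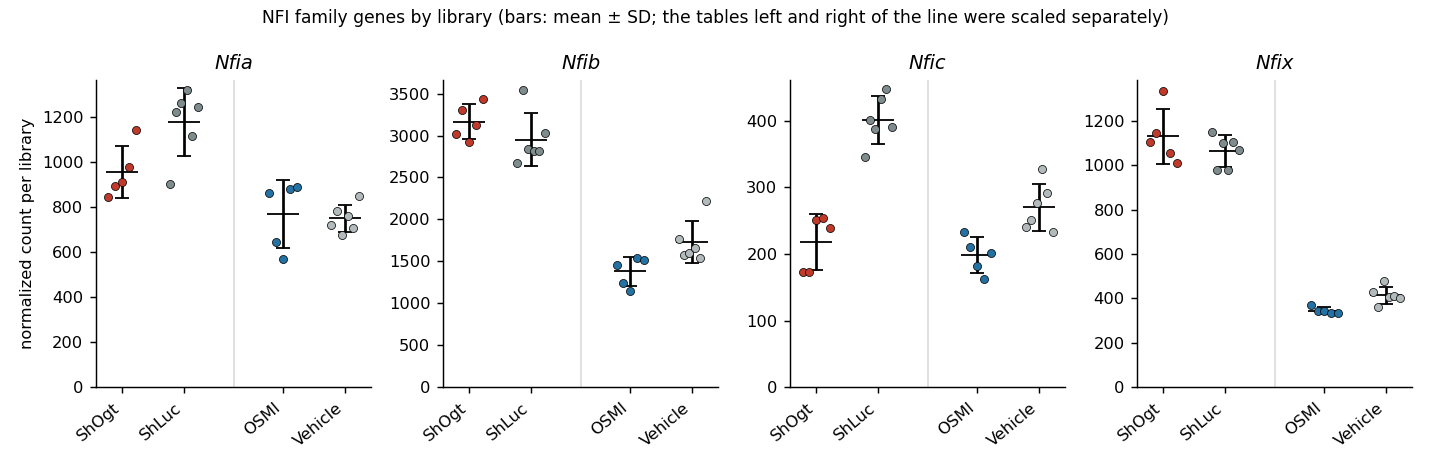
Normalized counts per library of Nfia, Nfib, Nfic and Nfix (vertical axes from 0, 1 scale per gene) for ShOgt, ShLuc, OSMI and Vehicle libraries, with points for libraries and bars for mean ± SD. For Nfic the ShOgt points, 173 to 254, all lie below the ShLuc points, 345 to 447, and the tables left and right of the grey line were scaled separately.

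OSMI-1 was accompanied by another pattern: Nfib, Nfic and Nfix were lower, and Nfia was not called. Nfib had 1459, 1239.8, 1153, 1538 and 1518 normalized counts in OSMI libraries 1, 2, 4, 5 and 6. Vehicle libraries ran from 1539 over a median of 1636 to 2216. The groups touched without overlap, OSMI 5 lying just below Vehicle 5, and Nfib fell by 20% (log2 fold change -0.32 ± 0.09, limma adjusted p = 0.013).

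Nfic had 233, 211, 182, 162 and 202 normalized counts in OSMI libraries, against a lowest of 233, a median of 264 and a highest of 327 in Vehicle libraries. Only OSMI 1 reached the lowest Vehicle value, and Nfic fell by 26.6% (log2 fold change -0.45 ± 0.12, limma adjusted p = 0.0069). Nfix had 370, 345, 343, 334 and 336 normalized counts in OSMI libraries. In Vehicle libraries it ran from 362 over a median of 409 to 477. Only OSMI 1 overlapped the Vehicle range, and Nfix fell by 16.5% (log2 fold change -0.26 ± 0.09, limma adjusted p = 0.032).

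Nfia had 863, 644, 571, 879 and 887 normalized counts in OSMI libraries, against 676, 741 and 847 as lowest, median and highest in Vehicle libraries. Its OSMI values spread to both sides of the Vehicle range, OSMI 2 and OSMI 4 below it and the other 3 above it. The log2 fold change was 0.02 ± 0.11 (95% interval -0.20 to 0.24, limma adjusted p = 0.93).

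After OSMI 3 of 4 members were called lower, beside 13.2% of the 11349 genes tested. No member was called higher by limma or edgeR or had a positive change at an unadjusted p below 0.05, beside 11.6% of genes called higher. Groups without overlap, OSMI lower, were found for 1 of 4 members (Nfib), beside 7.71% of genes, and groups without overlap, OSMI higher, for 0 of 4, beside 6.27%. In the authors' deposited table, whose fold changes run Vehicle over OSMI, Nfib, Nfic and Nfix have adjusted p-values of 0.0083, 0.0024 and 0.017. The 3 calls were all lost without the libraries that stood apart (OSMI 4, OSMI 5 and Vehicle 1), with log2 fold changes of -0.28, -0.35 and -0.23 for Nfib, Nfic and Nfix and adjusted p-values of 0.07, 0.062 and 0.15. Leaving out single libraries ended the Nfix call alone, for 8 of 11: the adjusted p was 0.055, 0.052, 0.062 and 0.062 without OSMI 2, 4, 5 and 6 and 0.054, 0.086, 0.052 and 0.051 without Vehicle 1, 3, 4 and 5.

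These are whole cultures, so less RNA per cell and fewer cells that express a gene cannot be told apart. Nfic was the 1 member called lower in both comparisons, beside 5.64% of the 11269 genes tested in both.

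The 2 log2 fold changes of each member were then set against each other in 1 fit over all 22 libraries, in which each table is compared only within itself. The comparisons differ in agent, time and depth, and share no libraries. Nfib differed by 0.42 ± 0.13 (ShOgt effect 0.10 minus OSMI effect -0.32, limma adjusted p = 0.014). Nfix differed by 0.34 ± 0.12 (0.08 minus -0.26, adjusted p = 0.031). For both the OSMI effect lay below the knockdown effect.

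For Nfic the difference was -0.45 ± 0.18 (limma adjusted p = 0.066) and for Nfia -0.32 ± 0.15 (adjusted p = 0.14), neither past the threshold. So 2 of 4 members had effects that differed between the treatments, beside 22.9% of genes. Without the 6 libraries that stood apart the calls changed places: the adjusted p was 0.063 for Nfib, 0.11 for Nfix, 0.015 for Nfic (difference -0.66) and 0.047 for Nfia (difference -0.42). Leaving out single libraries ended the Nfix call without ShOgt 2 (0.051), ShOgt 3 (0.069), ShLuc 2 (0.054), ShLuc 4 (0.055) or Vehicle 3 (0.061). It made a call of Nfic without ShOgt 3 (0.04), ShOgt 5 (0.043), ShLuc 1 (0.046), OSMI 5 (0.036) or Vehicle 4 (0.042), and of Nfia without OSMI 4 (0.038).

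**Figure D2:**
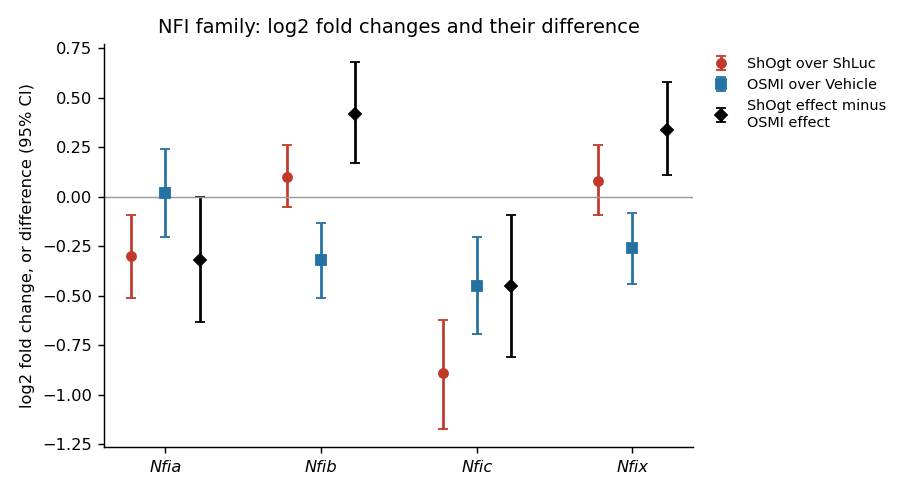
Log2 fold changes of the NFI genes on the log2(normalized count + 1) scale with 95% confidence intervals, for ShOgt over ShLuc (red circles), OSMI over Vehicle (blue squares) and the difference between them (black diamonds). Nfic lies below 0 in both comparisons, and the difference of Nfib, 0.42, and of Nfix, 0.34, lies above 0.

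Because NFI proteins dimerise with each other, the balance of the 4 transcripts was described as ratios within each library, after adding 1 to each normalized count, so that scaling of the library nearly cancels. The ratio of Nfia to Nfib was lower after knockdown and higher after inhibition. Its log2 value was -1.84, -1.89, -1.68, -1.68 and -1.59 in ShOgt libraries. In ShLuc libraries it ran from -1.57 to -1.10. The mean moved by -0.40 without overlap (exact permutation test, two-sided, adjusted p = 0.016 over 12 ratio comparisons).

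The same log2 ratio of Nfia to Nfib was -0.76, -0.94, -1.01, -0.81 and -0.78 in OSMI libraries, against -1.39 to -1.01 in Vehicle libraries. It moved by 0.34, with OSMI 4 only just above Vehicle 2 (exact permutation test, adjusted p = 0.013). Without the libraries that stood apart the change was -0.43 after knockdown and 0.35 after inhibition. Each had an adjusted p of 0.069 in the exact permutation test, with too few libraries left for that test to decide. The difference between the treatments in this ratio was not tested.

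Ratios that involve Nfic carried the rest of the change after knockdown. There were 4.75 Nfia counts per Nfic count at the median of ShOgt libraries and 3.04 at the median of ShLuc libraries (log2 difference 0.59). Nfib over Nfic had medians of 14.3 in ShOgt and 7.5 in ShLuc libraries (log2 difference 1.00). Nfic over Nfix had medians of 0.189 in ShOgt and 0.386 in ShLuc libraries (log2 difference -0.98). All 3 separated the groups fully, each with an exact permutation test adjusted p = 0.0087, from the smallest p of 0.0022 that 462 regroupings allow. Without the libraries that stood apart the 3 log2 differences were 0.66, 1.1 and -1.08. Each had an exact permutation test adjusted p of 0.069, again with too few libraries left for that test to decide.

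Nfia over Nfix moved by -0.38 after knockdown (exact permutation test, adjusted p = 0.078), and Nfib over Nfix moved by 0.02 (adjusted p = 0.88). After OSMI the 5 ratios other than Nfia to Nfib did not pass, with adjusted p-values of the exact permutation test from 0.056 for Nfia over Nfic (0.46) to 0.72 for Nfib over Nfix (-0.06). Nfia over Nfix did pass without ShOgt 6 (adjusted p = 0.048) or ShLuc 1 (0.032) in the knockdown, and Nfia over Nfic without OSMI 2 (0.048) or Vehicle 6 (0.032) in the inhibition.

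**Figure D3:**
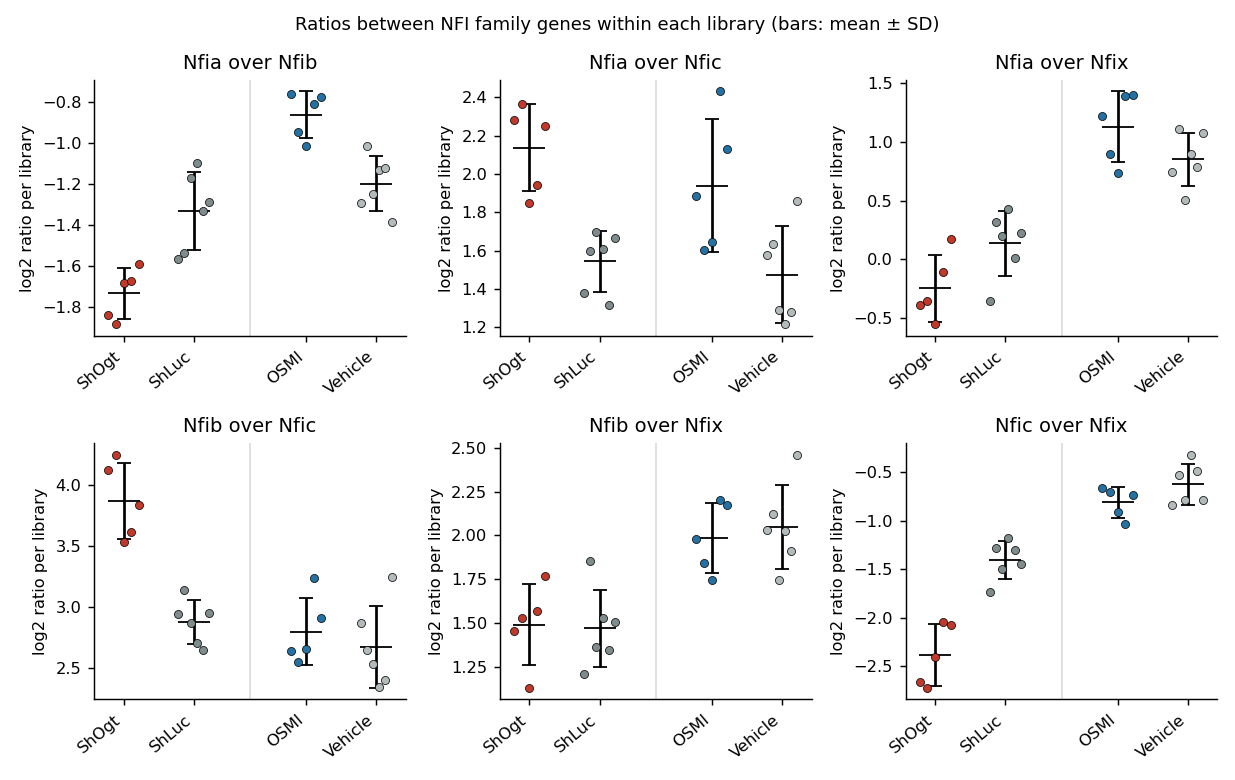
Log2 ratio of each pair of NFI genes within each library, 1 panel per pair, for ShOgt, ShLuc, OSMI and Vehicle libraries, with points for libraries and bars for mean ± SD. In the panel of Nfia over Nfib the ShOgt points lie below the ShLuc points and the OSMI points above the Vehicle points, by -0.40 and 0.34 between the means.

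Summed over the family and taken per kb, NFI transcripts amounted to 688 ± 26.1 normalized counts per kb in ShOgt and 706 ± 34.9 in ShLuc libraries, with overlapping ranges. The sum was 327 ± 35.5 in OSMI and 387 ± 29.4 in Vehicle libraries, 84.4% of the Vehicle mean and without overlap. As a share of that sum, Nfic made up 5.07% ± 0.897 in ShOgt and 9.11% ± 0.785 in ShLuc libraries. Nfib made up 50.4% ± 2.71 in ShOgt and 45.8% ± 2.74 in ShLuc libraries, and Nfix 30% ± 3.39 in ShOgt and 27.6% ± 2.98 in ShLuc libraries. Nfia made up 14.5% ± 1.36 in ShOgt and 17.5% ± 1.88 in ShLuc libraries. After inhibition the largest shift in share was that of Nfia, at 24.5% ± 2.31 in OSMI and 20.3% ± 1.32 in Vehicle libraries. Nfia itself had 80.7 ± 15.7 normalized counts per kb in OSMI and 78.7 ± 6.4 in Vehicle libraries, so its share rose as the sum fell. These sums and shares are descriptions without a test.

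**Figure D4:**
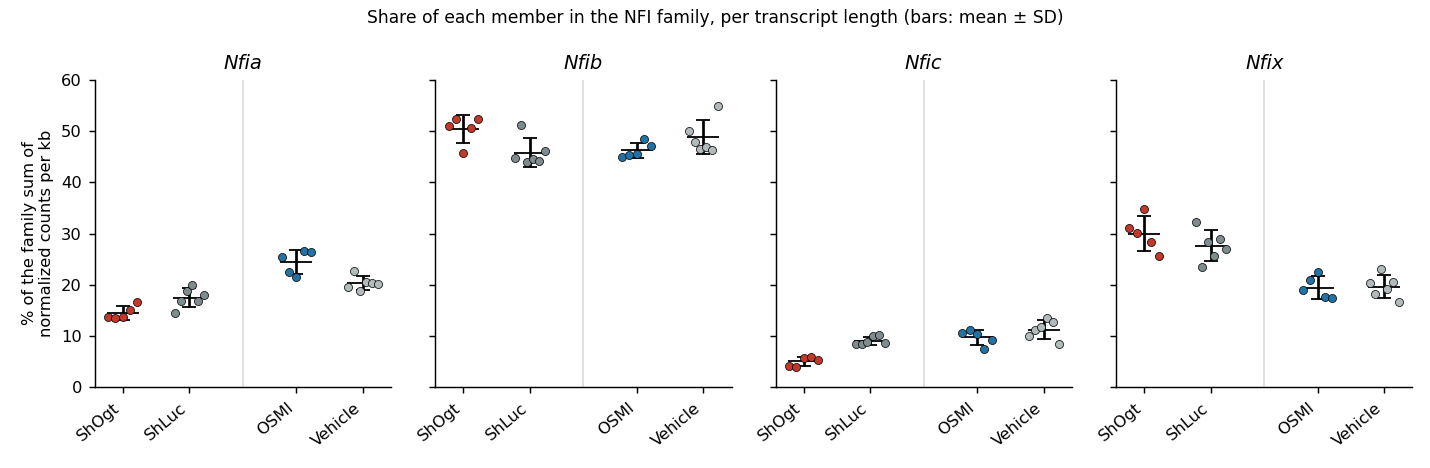
Percent of the family's summed normalized counts per kb of longest transcript held by each NFI gene (vertical axis from 0) in ShOgt, ShLuc, OSMI and Vehicle libraries, with points for libraries and bars for mean ± SD. Nfic held 3.99% to 6% in ShOgt and 8.46% to 10.3% in ShLuc libraries.

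The members did not vary as 1 block among libraries of the same group. Over the 22 libraries, after removal of the 4 group means, Nfia and Nfib correlated at r = 0.70, Nfia and Nfix at -0.42, and the other 4 pairs between -0.29 and 0.23. These values are descriptions and carry no p, since libraries may share depth or batch.

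Among genes known as regulators or partners of NFI factors, 9 of 18 were lower and 1 was higher in ShOgt libraries (median log2 fold change -0.27, against 0.01 over all genes). Of all genes tested 16.4% were lower and 15.4% higher. The number of these regulators and partners called in either direction was 10 over all libraries. It was 7 to 9 on leaving out 1 library at a time, and 7 without the libraries that stood apart. Sox9, which switches on Nfia in gliogenesis, had 1391 ± 68.6 normalized counts in ShOgt and 2182 ± 306 in ShLuc libraries (-0.64, limma adjusted p = 1.4e-05). Olig2, a lineage factor that opposes Nfia in glial fate choice, had 403 ± 42.3 in ShOgt and 721 ± 170.1 in ShLuc libraries (-0.81, limma adjusted p = 0.00019). Rbpj, the DNA-binding partner of Notch, had 254 ± 35 in ShOgt and 388 ± 48.1 in ShLuc libraries (-0.61, limma adjusted p = 0.00099). Tle4, a corepressor, had 260 ± 37.9 in ShOgt and 402 ± 37.6 in ShLuc libraries (-0.63, limma adjusted p = 0.00039).

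After OSMI 2 of the 18 regulators and partners were higher, beside 11.6% of all genes tested, and 1 was lower, beside 13.2%. The median was -0.06, against 0 over all genes. Sox9 was among the higher, with 1139 ± 133 in OSMI and 961 ± 38.1 in Vehicle libraries (0.24, limma adjusted p = 0.028). That call of Sox9 was lost without OSMI 1 (0.076), OSMI 6 (0.085), Vehicle 3 (0.054), Vehicle 4 (0.059) or Vehicle 5 (0.057). Zbtb20, a zinc finger factor that acts with Sox9 and Nfia in astrocyte formation, had 521 ± 74.9 in OSMI and 361 ± 81 in Vehicle libraries (0.55, adjusted p = 0.0037). It was the 1 regulator called higher after knockdown too, at 1769 ± 204 in ShOgt and 1341 ± 131 in ShLuc libraries (0.40, 0.0016). Pax6, a progenitor factor, was the 1 lower, at 55.5 ± 24.2 in OSMI and 106 ± 25.2 in Vehicle libraries (-0.98, adjusted p = 0.0025). Pax6 was also lower after knockdown, at 143 ± 10 in ShOgt and 188 ± 23.1 in ShLuc libraries (-0.38, 0.036). The difference between the 2 treatments was not tested for genes outside the family.

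Among 16 measured astroglial genes tied to NFI factors, 2 were higher and 4 lower in ShOgt libraries (median log2 fold change -0.17). Of all genes tested 15.4% were higher and 16.4% lower. The glutamate transporter Slc1a3 had 8547 ± 328 normalized counts in ShOgt and 12303 ± 473 in ShLuc libraries (-0.53, limma adjusted p = 3.3e-07), and the related Slc1a2 had 279.9 ± 47.1 in ShOgt and 386 ± 55.3 in ShLuc libraries (-0.46, 0.01). Zcchc24, a target shared by Sox9 and Nfia in spinal cord gliogenesis, had 828 ± 51.4 in ShOgt and 1026 ± 115 in ShLuc libraries (-0.30, 0.013), and was higher after inhibition, at 945 ± 83.9 in OSMI and 804 ± 55.3 in Vehicle libraries (0.23, 0.03). Cst3, a secreted protease inhibitor, was higher, at 12399 ± 943 in ShOgt and 9226 ± 1216 in ShLuc libraries (0.43, 0.00039). Gfap, the astrocyte filament gene and a classical Nfia target, was barely detected, at 15.1 ± 7.54 in ShOgt and 19.1 ± 4.33 in ShLuc libraries (-0.42, limma adjusted p = 0.45).

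After OSMI 4 of 15 measured astroglial genes were higher and 4 lower (median -0.06), beside 11.6% and 13.2% of all genes tested. Slc1a3 had 3455 ± 170.4 in OSMI and 5318 ± 277 in Vehicle libraries (-0.62, limma adjusted p = 4.3e-08). The fibroblast growth factor receptor Fgfr3 had 64.6 ± 13.7 in OSMI and 170.4 ± 16.3 in Vehicle libraries (-1.41, 2.9e-07). After knockdown Fgfr3 was higher, at 385 ± 151 in ShOgt and 246 ± 67.3 in ShLuc libraries (0.62, 0.031). The groups overlapped, with a median of 312 and a highest of 645 in ShOgt libraries and a highest of 322 in ShLuc libraries. This call of Fgfr3 was not rechecked with libraries left out. The glycolytic enzyme gene Aldoc had 995 ± 102 in OSMI and 1498 ± 155 in Vehicle libraries (-0.59, 9.4e-06). The calcium-binding S100b was higher, at 142 ± 33.3 in OSMI and 58.3 ± 13.7 in Vehicle libraries (1.28, 2.5e-05). Fabp7, a fatty acid binding protein of radial glia and a known NFI target, had 6282 ± 1352 in OSMI and 8976 ± 1260.4 in Vehicle libraries (-0.53, 0.00092). After knockdown Fabp7 was not called, at 10750.3 ± 1179 in ShOgt and 12269 ± 1448 in ShLuc libraries (-0.19, 0.089), though it passed without ShLuc 6 (0.032) or ShOgt 5 (0.05 after rounding).

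Progenitor genes that NFI factors hold down in the developing brain did not move as 1 group. Of 6 measured, 0 were higher by limma or edgeR and 2 were lower by limma in ShOgt libraries. Of 5 measured 2 were higher and 1 lower in OSMI libraries. Of all genes tested 15.4% were higher and 16.4% lower after knockdown, and 11.6% and 13.2% after OSMI. Ezh2, the Polycomb methyltransferase, had 159.9 ± 18.7 in ShOgt and 213 ± 38 in ShLuc libraries (-0.40, limma adjusted p = 0.053). Limma called it lower without ShOgt 6 (0.037), ShLuc 3 (0.009) or the libraries that stood apart (0.016). Over all libraries edgeR (0.047) and DESeq2 (0.039) called it lower too. In OSMI libraries it had 92.2 ± 7.72, against 169 ± 29.9 in Vehicle libraries (-0.86, adjusted p = 6.4e-05). Bbx, a gene held down by Nfix in the hippocampus, had 186 ± 45.5 in ShOgt and 256 ± 44.4 in ShLuc libraries (-0.48, 0.036), and 299 ± 44.1 in OSMI and 179 ± 33.5 in Vehicle libraries (0.74, 0.00016). Its call after knockdown was lost without ShOgt 1 (0.13), ShOgt 2 (0.07), ShOgt 3 (0.066), ShLuc 1 (0.07), ShLuc 5 (0.075) or ShLuc 6 (0.079). Each time Sox9 was left as the 1 progenitor gene called lower by limma. Without the libraries that stood apart Bbx was not called after knockdown either (-0.43, 0.09). Hes1, a Notch target, was not called in either, at 60.3 ± 16.3 in ShOgt and 49.9 ± 27.8 in ShLuc libraries and 19.4 ± 4.87 in OSMI and 22.8 ± 7.56 in Vehicle libraries.

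Of the neuronal maturation genes linked to NFI factors 4 of 6 were measured. After knockdown 1 was higher and 2 lower, beside 15.4% and 16.4% of all genes tested. After OSMI 0 were higher and 1 lower by limma, beside 11.6% and 13.2%. The ligand gene Wnt7a was lower in both, at 89.4 ± 43.7 in ShOgt and 288 ± 50.2 in ShLuc libraries (-1.79, limma adjusted p = 1e-05) and 105 ± 17.1 in OSMI and 166 ± 26.9 in Vehicle libraries (-0.65, 0.0018). The adhesion gene Nrcam was lower (-0.39, 0.0024) and Cdh2 higher (0.24, 0.031) after knockdown. The Cdh2 call was lost without ShOgt 1 (0.053), ShOgt 2 (0.075), ShOgt 5 (0.068), ShOgt 6 (0.075), ShLuc 1 (0.061), ShLuc 3 (0.069) or ShLuc 4 (0.052).

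Cycling genes changed in both comparisons as well, and their part in the NFI changes was not tested. Of 13 measured quiescence and cycling genes, 3 were higher and 7 lower in ShOgt libraries (median log2 fold change -0.71), and 3 higher and 9 lower in OSMI libraries (median -0.44). Of all genes tested 15.4% were higher and 16.4% lower after knockdown, and 11.6% and 13.2% after OSMI. The proliferation marker Mki67 had 636 ± 122 in ShOgt and 1286 ± 155 in ShLuc libraries (-1.03, limma adjusted p = 2e-06), and 287 ± 49 in OSMI and 738 ± 169.8 in Vehicle libraries (-1.34, 8.3e-08). The replication gene Mcm2 changed by -0.95 after knockdown, and the mitotic cyclin gene Ccnb1 by -0.77 after knockdown and -1.59 after inhibition. The cyclin gene Ccnd2 was higher after knockdown (0.36, limma adjusted p = 0.00026) and after inhibition (0.29, 0.0015). So was the cell cycle inhibitor gene Cdkn1a (0.52, 5.2e-06, and 0.52, 4.1e-07). Id1 was higher after knockdown (0.34, 0.047) and lower after inhibition (-0.71, 0.00023). The list mixes genes of cycling and of quiescence, so its median does not measure cycling. Ccnd1, the G1 cyclin gene, had 19152 ± 1469 in ShOgt and 18582 ± 756 in ShLuc libraries (0.04, 0.62), and 16327 ± 709 in OSMI and 14388 ± 1024 in Vehicle libraries (0.18, 0.034). That Ccnd1 call was lost without OSMI 2 (0.088), OSMI 4 (0.054), OSMI 5 (0.059), Vehicle 2 (0.064), Vehicle 4 (0.06) or Vehicle 6 (0.067). It was also lost without the libraries that stood apart (0.19, 0.093).

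Markers of other cell types also moved. The 8 oligodendrocyte lineage markers summed to between 10014 and 11543 normalized counts in ShOgt and between 17774 and 20743 in ShLuc libraries, nearly all of it Olig1, with Mog at 0 in every library of that table. Their sums were 10943 to 14663 in OSMI and 9716 to 12283 in Vehicle libraries. The 8 astrocyte markers summed to between 7463 and 8388 in ShOgt and 7587 and 8156 in ShLuc libraries, and to 3772 to 4369 in OSMI and 3864 to 4189.9 in Vehicle libraries. The 8 neuronal markers, mostly Map2, summed to 3096 to 3513 in ShOgt and 3339 to 4155 in ShLuc libraries, and to 2228 to 3071 in OSMI and 1919 to 2385 in Vehicle libraries. Of the 5 measured, 2 were higher (Tubb3 and Syt1, 0.77 and 2.52) and Map2 lower (-0.39) after knockdown. After inhibition Map2 was higher (0.39) and Tubb3, Syt1 and Snap25 lower (-0.80, -0.65 and -1.68). Over all genes tested the shares were 15.4% higher and 16.4% lower after knockdown, and 11.6% and 13.2% after OSMI. Ependymal and choroid plexus markers, 5 in all, summed to at most 181 in ShOgt, 166 in ShLuc, 96.6 in OSMI and 188 in Vehicle libraries. The 7 vessel and mural markers summed to at most 60.2 in ShOgt, 29.5 in ShLuc, 33.5 in OSMI and 18.4 in Vehicle libraries. The part of these markers in the NFI results was not tested.

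**Figure D5:**
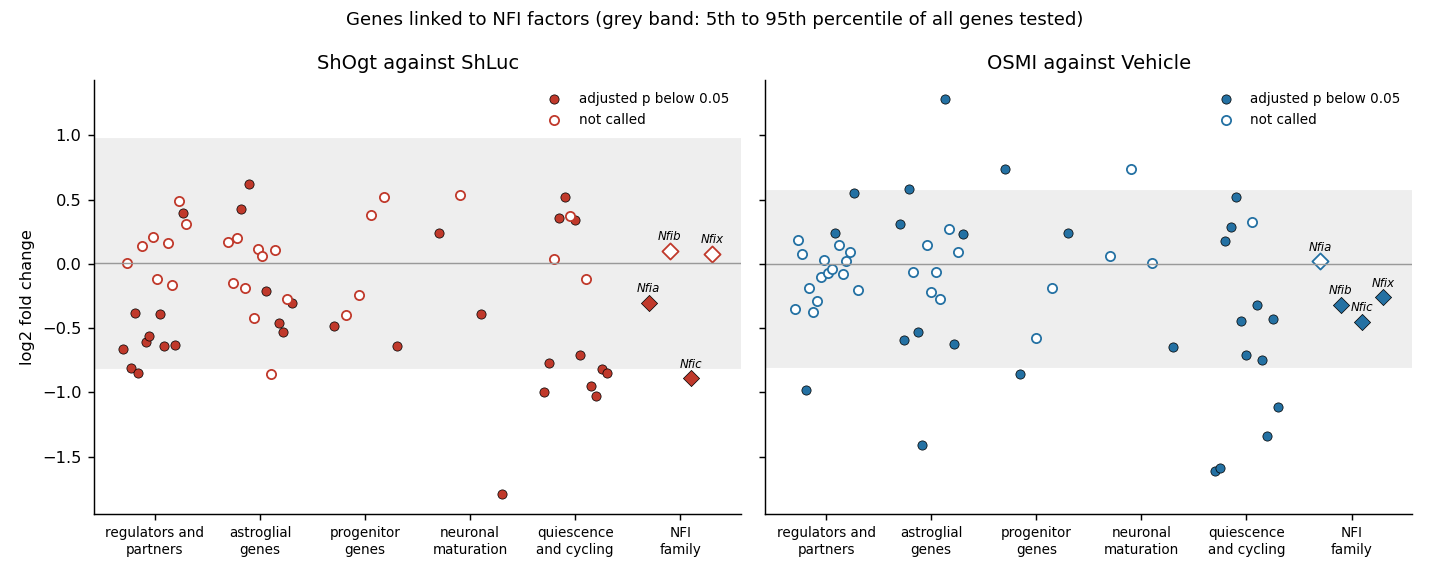
Log2 fold changes (vertical axis) of genes linked to NFI factors, by list, after knockdown (left) and inhibition (right), with filled points for limma adjusted p below 0.05, open points for genes not called, and NFI genes as diamonds. The grey band is the 5th to 95th percentile of all genes, -0.81 to 0.97 on the left and -0.80 to 0.57 on the right, and of the NFI genes only Nfic after knockdown lies outside it.

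The 3 genes most like each member were found by correlation over the 22 libraries, each table centred on its own mean, among 6990 genes with a mean of at least 100 normalized counts in both tables. For Nfia they were Znrf3 (r = 0.79), which removes Wnt receptors from the cell surface, the Wnt receptor Fzd3 (0.77) and the cullin Cul5 (0.76). For Nfib they were the Polycomb subunit gene Eed (0.84), Ssr1 (0.82) and the splicing-linked Rbm8a (0.78). For Nfic they were the DNA damage mediator Mdc1 (0.92), the hypoxia factor Epas1 (0.91) and Ivns1abp (0.89). For Nfix they were the collagen gene Col4a1 (0.80), Fgfr3 (0.78) and the tubulin gene Tubb2a (0.78).

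Part of this likeness comes from the group means. After their removal the correlation was 0.77 for Nfia with Znrf3, 0.72 for Nfib with Eed, 0.72 for Nfic with Mdc1 and 0.70 for Nfix with Col4a1, but 0.33 for Nfic with Ivns1abp. These genes were picked by correlation over libraries that include the group differences, so their own log2 fold changes are descriptions that follow in part from the choice: -1.24 after knockdown and -1.04 after inhibition for Mdc1, and 0.17 and -0.51 for Eed.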

How the data were processed

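RNA-seq was measured in 22 libraries of cultured mouse neural stem cells. The deposited tables hold, per library, a normalized signal (read counts divided by size factors), which the authors made with STAR, RSEM and DESeq2 per the submitters' processing notes, with no versions and with the build named as hg38 although gene symbols are mouse. Per the labels' protocols libraries were strand-specific and poly(A)-enriched, while the series' design text names Smart-Seq2. The authors' deposited log2 fold changes, score (Wald statistic), p-values and adjusted p-values run ShOgt over ShLuc in one table and Vehicle over OSMI in the other, and all fold changes computed here run treated over control.

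All positive values (100%) were within 0.001 of whole reads per step, and those recovered reads gave the depth, the filter (edgeR filterByExpr, minimum count 10, total 15) and the count tests. The main test was limma 3.58.1 (R 4.3.3) on log2(value + 1) of the normalized counts, its variance following an intensity trend, fitted per table with Benjamini-Hochberg adjustment over all genes at 0.05. Differences between treatments came from 1 limma fit of 4 group means, and ratios from exact permutation tests. On the recovered reads, edgeR 4.0.16's quasi-likelihood test called 3848 genes after knockdown and 2804 after inhibition, against 3855 and 2815 by limma. DESeq2 1.42.0, TMM scaling, pseudocounts of 0.5 and 8, no filter, a replicate block and left-out libraries were the alternatives.

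The members and gene lists were chosen with earlier results of these data known. Named genes were the members, Ogt, 8 genes of the lists (Sox9, Gfap, Slc1a3, Fabp7, Ezh2, Hes1, Mki67 and Ccnd1), up to 4 called genes per list and comparison by smallest p, and the 3 genes most like each member. Ccnd2, Cdkn1a and Id1 were named besides, as the other quiescence and cycling genes called higher. Gene models are GENCODE M21 (GRCm38), promoters RefSeq. Statistics were tested on simulated data.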

Additional observations from a re-analysis of the deposited data

Results flagged for a closer look

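Vehicle 6 held 2216 normalized counts of Nfib, far above the other 5 Vehicle libraries, which lay between 1539 and 1767 (its gap to the next library was 0.66 of the range, above Dixon's limit for 6 samples). It was the 1 such value among 16 gene and group combinations, and chance marks about 1 in 20. Without Vehicle 6 the log2 fold change of Nfib after OSMI was -0.25 (limma adjusted p = 0.032). The weakest call of Nfib came without OSMI 4 (-0.26), where the adjusted p rounds to 0.05. Vehicle 6 also had the lowest share of Rn45s reads of its table, 4.81%, against 8.02% to 14.2% in the other Vehicle libraries, and the part of this in the Nfib value was not tested.

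The effects of knockdown and of inhibition differed for 2 members in the limma fit over all libraries. For Nfib the ShOgt effect minus the OSMI effect was 0.42 ± 0.13 (adjusted p = 0.014), from 0.10 and -0.32. For Nfix it was 0.34 ± 0.12 (adjusted p = 0.031), from 0.08 and -0.26. Agent, exposure time and depth all differ between the treatments and cannot be told apart.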

How the results depend on the processing

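Under edgeR, DESeq2, TMM scaling, both other pseudocounts and no filter, all 8 member comparisons kept their direction and their side of the threshold. Without the libraries that stood apart the OSMI changes were -0.28 for Nfib (limma adjusted p = 0.07), -0.35 for Nfic (0.062) and -0.23 for Nfix (0.15), and the differences between treatments were -0.42 for Nfia (0.047), 0.37 for Nfib (0.063), -0.66 for Nfic (0.015) and 0.29 for Nfix (0.11). After knockdown the ratio changes then were -0.43 (Nfia over Nfib), 0.66 (Nfia over Nfic), 1.1 (Nfib over Nfic) and -1.08 (Nfic over Nfix). After OSMI the change of Nfia over Nfib was 0.35. Each had an adjusted permutation p of 0.069, and too few libraries were left for that test to decide. Ccnd1 after knockdown was then 0 (0.96). With the normal test on separate fits the Nfic difference of -0.45 had an adjusted p of 0.043.

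Of the pairs of same-numbered libraries, 1 of 5 in the knockdown (ShOgt 3 with ShLuc 3, r = 0.16) and 0 of 5 in the inhibition correlated above 0.1, so the numbers were not taken to pair the libraries. With the replicate number as a block, Nfix after OSMI was -0.22 (0.13), Nfia after OSMI -0.01 (0.95) and the Nfix difference 0.28 (0.12), and 2 neuronal maturation genes were called after OSMI. The block left 3966 and 2373 genes called after knockdown and inhibition. With 5 pairs a ratio test could not go below 0.062. Of the ShOgt libraries 1 of 5 correlated best with its own number, and of the OSMI libraries 0 of 5. Without a filter 1 progenitor gene was called after knockdown.

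On leaving out 1 library at a time, Nfia ranged from -0.37 to -0.26 after knockdown and from -0.04 to 0.12 after OSMI, and Nfix from -0.30 to -0.22 after OSMI. The differences ranged from -0.42 to -0.26 for Nfia, -0.52 to -0.37 for Nfic and 0.28 to 0.38 for Nfix, and that of Nfib kept its call. After knockdown the ratio of Nfia to Nfix ranged from -0.49 to -0.31 and that of Nfib to Nfix from -0.05 to 0.11. After OSMI the ratio of Nfia to Nfic ranged from 0.34 to 0.55 and that of Nfib to Nfix from -0.12 to 0.02. Progenitor genes called after knockdown numbered 1 to 3, and neuronal maturation genes called after OSMI 1 to 2. The cause of these changes was not tested. Nfic had the fewest reads, 136 to 492 per library, and depth was not separated from the spread between libraries.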
